A study of Danio rerio with 4 samples.

Results

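The eyes of unoperated zebrafish were measured on 2 of the 11 arrays of a study of optic nerve injury, which makes 4 of its 22 channels. These 4 channels were chosen because both dyes of the 2 arrays carried RNA of fish that had received no treatment. They hold 3 of the 21 RNA pools: pool C2 was labelled with Cy5 on both arrays, pool C3 with Cy3 on the first and pool C4 with Cy3 on the second. The labels speak of 4 control replicates, whereas the array names give 3 pools. All fish were wild type (zdr) from a pet store on a light/dark cycle of 12 h, and the tissue was the left eye without lens and sclera, taken at 0 h. The 9 other arrays each set an eye with a severed optic nerve against a sham-operated eye, in which the muscles around the eye were severed and the nerve was left intact, at 3, 24 and 168 h. The 9 sham pools, from the same line, light cycle and dissection, serve below as the comparison group. Each pool joined RNA of several fish, so the spread between single fish was not measured.

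A fish eye is dominated by the retina, in which rods serve dim light and cones serve colour. In both, an opsin activates transducin, transducin activates a phosphodiesterase (PDE6), and the cell stops releasing transmitter. Kinases and arrestins switch the opsin off again, and the retinal pigment epithelium rebuilds the visual pigment. Müller glia, bipolar, amacrine, horizontal and ganglion cells make up the rest of the retina.

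Signal is the background-corrected intensity of a spot in scanner units. Each probe was ranked within its channel among 14067 zebrafish probes, and the percentiles were averaged over the 4 channels, so that 100 is the bright end. Values in brackets after a gene are these average percentiles. Oligonucleotides differ in how well they bind, so a percentile orders signals and not numbers of transcripts, and in whole-eye RNA fewer cells of a type cannot be told apart from less RNA per cell. Empty positions on the array set the floor: a spot is called above the empty spots in a channel if its foreground was brighter than 95% of them. By that limit 26.6% of the zebrafish probes were above in all 4 channels, 20.6% in none and 52.8% in 1 to 3. More spots passed it in Cy3: 68.6% of the zebrafish probes passed it in each Cy3 channel and 35.2% and 40.2% in Cy5, while 54.3% and 50.3% of the Arabidopsis control probes passed it in Cy3 and 8.09% and 11.6% in Cy5. Of the 5092 genes with a symbol, each shown by its brightest probe, 35.7% were above in all 4 channels and 16.2% in none, and 21.1% were above the stricter limit set by the Arabidopsis probes in all 4. The median gene stood at percentile 54.9. The bright end was narrow: the 141 brightest probes of a channel held 41.6% and 37.0% of the signal in the Cy5 channels, and 31.9% and 30.8% in the Cy3 channels.

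Photoreceptor genes led the list of bright genes. The first was pde6ha, an inhibitory subunit of the cone phosphodiesterase, with a signal of 47852 and 49610 in C2, 49095 in C3 and 52612 in C4. The second was rho, the opsin of rods, at 46358 and 42840 in C2, 48738 in C3 and 49114 in C4. These levels lay within a narrow band in all 4 channels, at average percentiles of 99.97 and 99.9. The second cone phosphodiesterase gene pde6hb had 43683 and 33125 in C2, 44183 in C3 and 38876 in C4. The rod transducin subunit gnat1 had 39672 and 26657 in C2, 33764 in C3 and 47062 in C4, and its range over the channels was wider than that of rho. The G protein beta subunit gene gnb1a, of the rod list, had 24896 and 24562 in C2, 21131 in C3 and 16764 in C4. Its relative gnb1b, on the same list but outside the 25 brightest, stood at 99.3. Also among the 25 brightest genes were rbp4l, a relative of retinol-binding protein (99.8), ckmt2a, a mitochondrial creatine kinase (99.8), and the cone arrestin arr3a (99.6). The cone arrestin was dimmer in C2 on array 2 than in the other channels, at 24465 and 14293 in C2, 25501 in C3 and 29002 in C4.

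The rod and cone lists as a whole were bright, with single dim members. The 19 measured genes of rod phototransduction had a median percentile of 89.9, and 14 of 19 were above the empty spots in all 4 channels. For the 18 cone genes the median was 93.2, and 13 of 18 passed in every channel. Both shares stand beside 35.7% of all genes with a symbol. At the dim end of the rod list lay nr2e3, a rod transcription factor in mammals and fish (29.1), and rcvrn3, a recoverin (34.2), both above in no channel, and prph2a, a disc rim protein, in 1. At the dim end of the cone list lay the green opsin gene opn1mw4 (17.6) and thrb, the thyroid hormone receptor of red cones (13.3), both above in no channel. A probe below the limit shows only that it did not stand out on these arrays. The medium-wave opsin opn1mw2, chosen after its values were seen, gave 270 and 432 in C2, 1290 in C3 and 1692 in C4. Both Cy5 values lay below both Cy3 values, and on the 9 operated arrays the Cy5 over Cy3 difference of this probe was -1.08 on the log2 scale (SE 0.22, adjusted p = 0.0048 in limma). The blue opsin opn1sw2, also chosen after its values were seen, had 4175 and 3272 in C2, 6131 in C3 and 4420 in C4. Both of its Cy5 values lay below both Cy3 values. The median signal of all zebrafish probes also lay lower in Cy5, at 163 and 204 in C2, 285 in C3 and 262 in C4. These medians lie far below the signal of opn1sw2. Among bright genes the order differed: both Cy5 values of gnb1a lay above both of its Cy3 values.

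**Figure D1:**
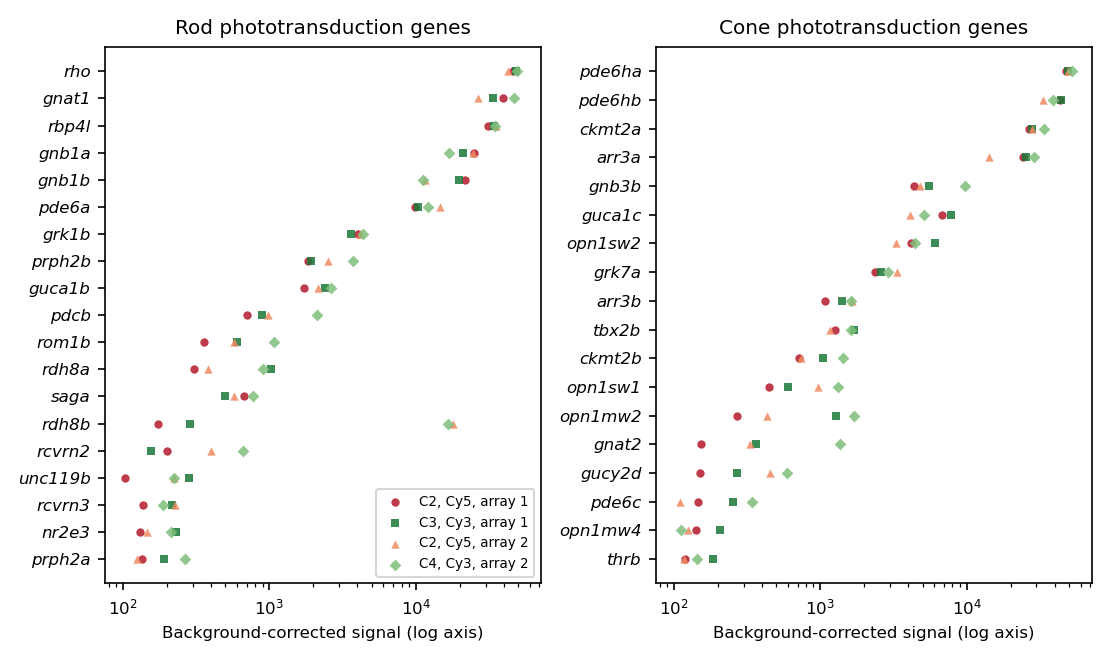
Background-corrected signal (log axis, scanner units) of each measured rod and cone phototransduction gene in the 4 unoperated channels, each gene shown by its brightest probe. Points are single channels. The brightest genes, rho and pde6ha, lie in a narrow band in all channels, and rdh8b lies at 16562 and 17907 on array 2 and at 175 and 288 on array 1.

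The protein-making and energy-yielding machinery formed the other bright block. Cytosolic ribosomal proteins had the highest median percentile of the 32 lists, 98.2, and 71 of 72 were above the empty spots in all 4 channels. The brightest was rpl23, a protein of the large subunit, with 30185 and 28050 in C2, 31512 in C3 and 50176 in C4. Next came rpl7a (99.8) of the large subunit, rps3 (99.8) of the small subunit and rpl10 (99.7) of the large. The exception was rps26, at 40.01 and above in no channel, while the gene for its relative rps26l stood at 99.6. Each gene is shown by its brightest probe, and a gene with more probes has more chances of a bright one. There were 3 probes for rpl23, 16 for rpl7a, 8 for rps3 and 8 for rpl10. Of the 5092 genes with a symbol, 1803 had more than 1 probe. The shares were not adjusted for the number of probes. The dimmest probes stood at 38.1 for rpl23, 25.97 for rpl7a, 23.2 for rps3 and 24.4 for rpl10. In all, 36 of the 72 ribosomal genes were among the 100 brightest genes, which make up 1.96% of the genes with a symbol. An average percentile of 95 or more, held by 3.95% of all zebrafish probes and 5.91% of the genes with a symbol, was reached by 60 of the 72 ribosomal, 9 of the 19 rod and 8 of the 18 cone genes. To the 100 brightest, rod and cone genes gave 6 each, 31.6% and 33.3% of their lists, and oxidative phosphorylation gave 5 of 47.

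Oxidative phosphorylation, the mitochondrial route to ATP, had a median percentile of 90.5, with 36 of 47 genes above in all 4 channels. The ATP synthase stalk gene atp5po had 34462 and 46875 in C2, 34597 in C3 and 44674 in C4, ndufa8 of complex I stood at 99.4 and cox4i1 of cytochrome oxidase at 99.03. The dimmest were uqcrc2a of complex III (11.7) and ndufs8a of complex I (11.96). Glycolysis and the citric acid cycle had a median of 80.4, led by aldocb, the aldolase of neural tissue, with 27387 and 26586 in C2, 27657 in C3 and 22854 in C4. Another probe of aldocb stood at percentile 9.42. Creatine kinase ckbb, which buffers ATP in brain and retina, reached 99.8, with 37910 and 19807 in C2, 43283 in C3 and 38030 in C4, so C2 was lower on array 2 than on array 1. Translation factors reached a median of 83.8, and 36 of 48 stood above in all 4, from eif3c (98.96) down to eif1axa (5.7). The RNA-binding protein ybx1 (99.8), the chromatin-associated prothymosin ptmaa (99.7), the Nedd4-binding adaptor ndfip1l (99.6) and the re-initiation factor mcts1 (99.6) completed the named part of the 25 brightest outside these lists. The remaining members of the 25 were the ribosomal genes rps27a, rpsa, rps10, rps4x and rps13, between 99.6 and 99.7.

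Part of the brightest signal came from probes without a current gene symbol. Of the 7 brightest probes, 5 had none, and 2 of these 5 shared a provisional clone name in the files. A total of 23 probes carry that name, and they ran from percentile 99.9 down to 18.7. Probes that the files describe as a short-wave and a long-wave cone opsin, with names cut off before the gene, ranked 20 and 30. Their signal was 34493 and 32115 in C2, 22603 in C3 and 31884 in C4 for the short-wave probe, and 31137 and 15659 in C2, 37194 in C3 and 18982 in C4 for the long-wave probe. Several probes of a gene often disagreed: over the 1803 genes with more than 1 probe, the median gap between the brightest and the dimmest was 31.2 percentile points. In 331 of them (18.4%) one probe was above the empty spots in all 4 channels and another in none.

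**Figure D2:**
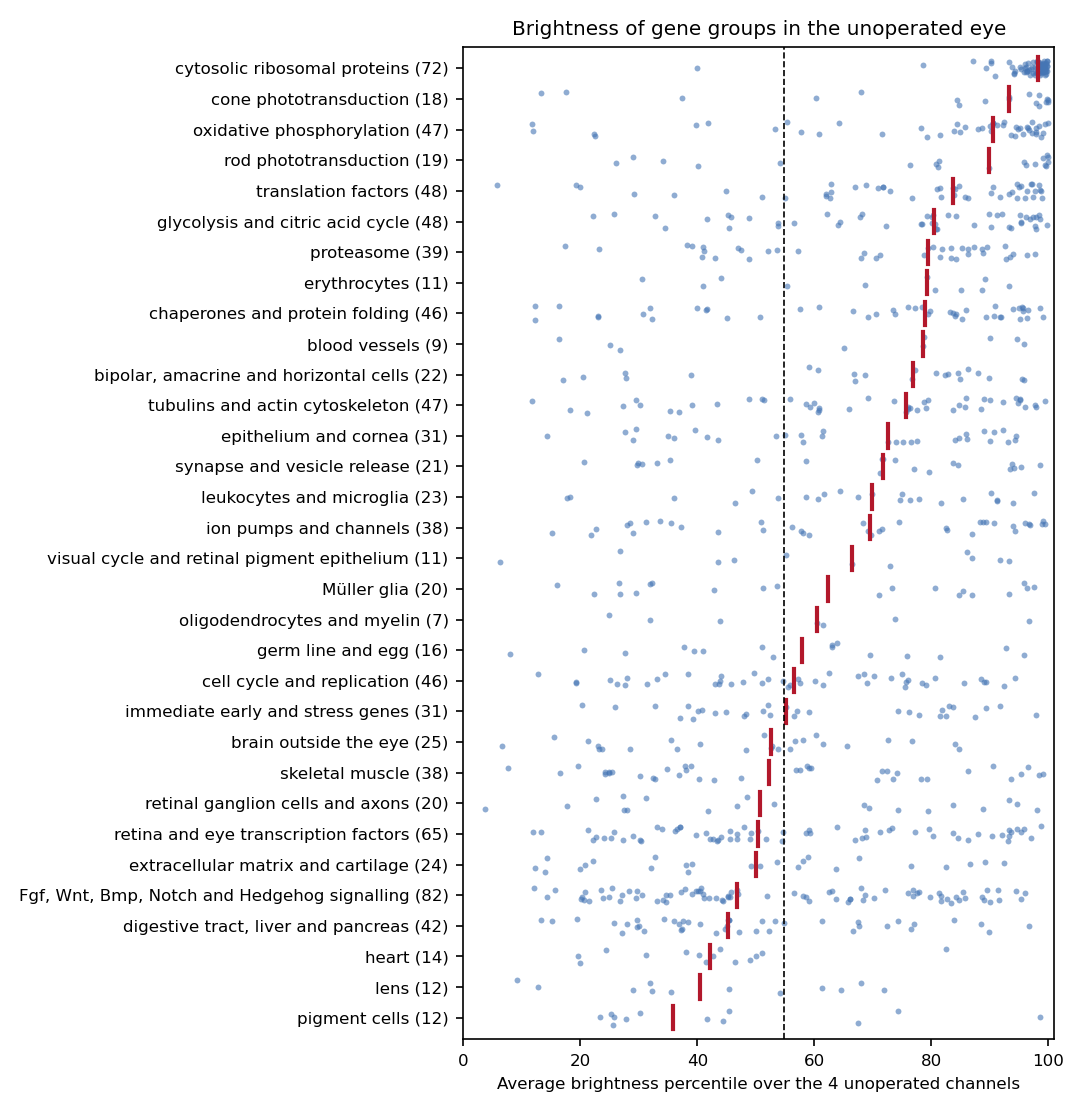
Average brightness percentile over the 4 unoperated channels for each measured gene (points) of 32 gene lists, with the number of genes in brackets. Red bars are list medians, from 98.2 for ribosomal proteins to 35.9 for pigment cells, and the dashed line is the median of all genes with a symbol (54.9).

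The inner retina was represented by a smaller set of bright genes. Markers of bipolar, amacrine and horizontal cells had a median percentile of 76.9. Of them 12 of 22 (54.5%) were above in all 4 channels, beside 35.7% of all genes. By the Arabidopsis limit 6 of 22 (27.3%) were, beside 21.1% of all genes. Leading were barhl2, a homeobox factor of amacrine cells, with 1998 and 2177 in C2, 2481 in C3 and 2254 in C4, and the neuropeptide npy at 95.4, followed by the factors tfap2b (89.9) and pax6a (87.9). The 4 channels of barhl2 lay close together. The dimmest were th, the rate-limiting enzyme of dopamine synthesis (20.5), and nos1, neuronal nitric oxide synthase (16.98), both above in no channel. Ganglion cell and axon genes had a median of 50.8. Over the Cy3 channels alone it was 60.6, while all genes with a symbol had 59.4 in C3 and 59.5 in C4 taken singly. Of the ganglion cell and axon genes, 7 of 20 were above in all 4 channels, beside 35.7% of all genes. Of these, inab, an intermediate filament of axons, had 3769 and 6995 in C2, 4324 in C3 and 5567 in C4. The ganglion cell RNA-binding protein rbpms2b had 1915 and 1351 in C2, 2136 in C3 and 1874 in C4, and the tubulin regulators stmn4l and stmn4 stood at 93.2 and 88.8. All 4 channels of inab and rbpms2b were far above the limit, while rbpms2a, elavl4, uchl1 and elavl3, genes used as neuronal or ganglion cell markers, were above in none, at 41.8, 28.01, 27.5 and 3.8. The growth cone gene gap43, known for its rise when axons regrow, was above in 1 channel, at 17.7.

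Müller glia genes split in the same way. The list had a median of 62.4, with 9 of 20 genes above in all 4 channels and 4 in none. These shares, 45% and 20%, stand beside 35.7% and 16.2% of all genes with a symbol. Apolipoprotein apoeb, which also marks microglia, had 3088 and 3478 in C2, 3605 in C3 and 4522 in C4. Glutamine synthetase glula, which clears glutamate, had 1445 and 2294 in C2, 2475 in C3 and 6153 in C4, and C4 lay above the other channels. The water channel aqp1a.1 stood at 95.8 and the factor sox9b at 93.3. The intermediate filament gfap, a marker of Müller glia in fish, had 159 and 191 in C2, 235 in C3 and 128 in C4. The glutamate transporter slc1a3a had 166 and 145 in C2, 230 in C3 and 118 in C4. Both were above the empty spots in no channel, as was fabp7a (22.4).

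The visual cycle was led by rpe65a, the isomerase of the retinal pigment epithelium, with 1147 and 1419 in C2, 1090 in C3 and 3145 in C4. C4 was the highest channel of rpe65a. It was also the highest for pde6ha, rho and rpl23, and the lowest for gnb1a and aldocb. The share of all probes that were highest in C4 is not given here. The retinol carrier rbp4 stood at 91.7 and the retinal-binding protein rlbp1a at 86.98. At the dim end, rpe65b and rbp2a were above in no channel (26.9 and 6.3). Pigment cell genes were dim, at a median of 35.9, and 3 of 12 passed in every channel (25%, beside 35.7% of all genes). These were paics, an enzyme of purine synthesis that all cells use (98.5), the xanthine dehydrogenase xdh (74.3) and dct, an enzyme of melanin synthesis. The dct probe had 232 and 601 in C2, 262 in C3 and 587 in C4. The xdh probe had 186 and 276 in C2, 942 in C3 and 918 in C4. Its Cy5 over Cy3 difference on the operated arrays was -1.44 on the log2 scale (SE 0.32, adjusted p = 0.0087 in limma). Of the melanin genes, tyrp1b was above in 2 channels. The lens, which had been removed, had 2 of 12 genes above in all 4 channels and 0 of 12 by the Arabidopsis limit, with a median of 40.5. Its crystallin cryba1b had 367 and 500 in C2, 397 in C3 and 336 in C4. The crystallin crygs2 had 269 and 277 in C2, 492 in C3 and 199 in C4. A further 5 of the 12 lens genes were above in 1 to 3 channels. A crystallin among them, above in 3, had 79.6 and 514 in C2, 687 in C3 and 2035 in C4. The alpha crystallin cryaa and the lens connexin gja8b were above in no channel.

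**Figure D3:**
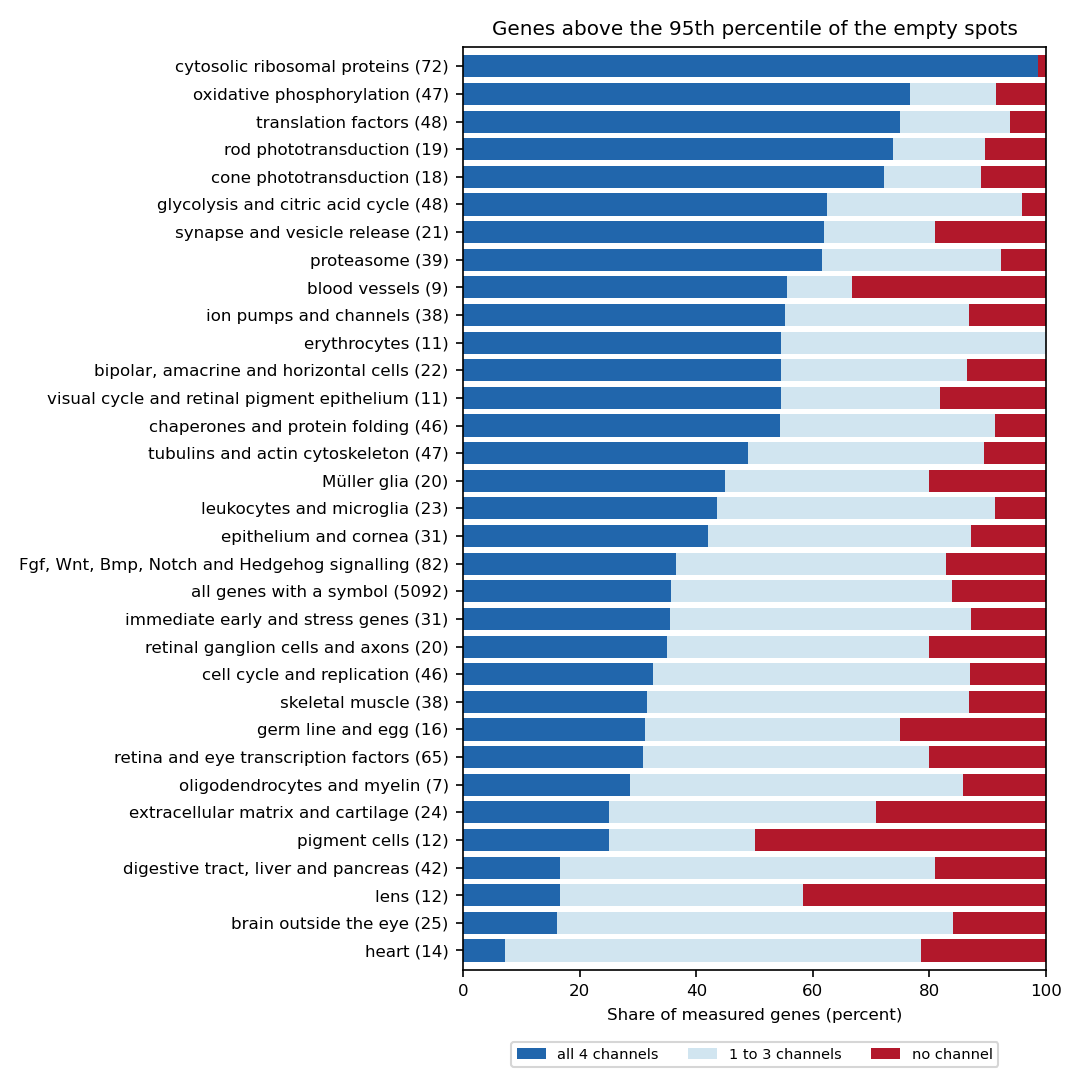
Share of the measured genes of each list (percent, with the number of genes in brackets) whose brightest probe exceeded the 95th percentile of the empty spots in all 4, in 1 to 3 or in none of the unoperated channels. Ribosomal, respiratory and photoreceptor genes lie above all genes with a symbol (35.7% in all 4 channels), and lens, brain and heart genes lie below.

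Marker genes of other tissues gave signal to differing degrees. Skeletal muscle genes had a median percentile of 52.2, with 12 of 38 (31.6%) above in all 4 channels. Both values lay below those of all genes with a symbol, 54.9 and 35.7%. Single muscle genes were bright, led by mylpfa, the light chain of fast myosin, with 8453 and 10572 in C2, 10226 in C3 and 17988 in C4. The actin acta1b stood at 96.4 and ldb3b of the Z-disc at 95.3, whereas pvalb2 and smyd1a were at 16.5 and 7.7. Red cell genes reached a median of 79.2, and 6 of 11 (54.5%) stood above in all 4. The beta globin hbba2 gave 1069 and 1093 in C2, 1247 in C3 and 3840 in C4. Its C4 value was higher than the other 3. The epithelial keratins krt8, krt97 and krt15 stood at 94.4, 94.2 and 93.1. The tight junction gene cldnb had 1076 and 1140 in C2, 920 in C3 and 4767 in C4. Leukocyte genes stood at 69.9 by their median, 10 of 23 (43.5%) of them above in all 4. They were led after apoeb by b2m of antigen presentation (93.96), the cathepsin ctsba (91.2) and npsn, a protease of neutrophils (91.2). The macrophage gene irf8 was above in no channel (17.8). Of 9 vessel genes 5 (55.6%) were above in all 4, namely aqp1a.1, rgs5a, acta2, sox17 and kdrl. Above in none were 3 (33.3%), among them tek and flt1. These shares stand beside 35.7% and 16.2% of all genes. By the Arabidopsis limit 3 of the 9 vessel genes were above in all 4.

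Among lists of distant organs, the heart (7.14%), brain (16%) and digestive (16.7%) lists had smaller shares above in all 4 channels than the 35.7% of all genes. The germ line (31.25%) and myelin (28.6%) lists lay nearer to that share, as did the skeletal muscle (31.6%) and cell cycle (32.6%) lists. Of heart genes 1 of 14 were above in all 4 channels, namely tnnc1a, a slow troponin, and its Cy5 values of 268 and 303 in C2 lay below 1519 in C3 and 1617 in C4. The cardiac factors gata5 and nkx2.5 were above in none. Of genes of the brain outside the eye 4 of 25 were above in all 4: cga, tph1a, tbr1b and hoxd4a. Of digestive genes 7 of 42 were, led by the transferrin tfa (96.8), and of germ line genes 5 of 16: zp3b, pou5f3, cldnd, ddx4 and zpax1. Another probe of pou5f3 gave 126 in C2 and 264 in C3 on array 1, but 6400 in C2 and 12637.5 in C4 on array 2. The egg coat gene zp3b had 1903 and 2479 in C2, 2178 in C3 and 2275 in C4. Of myelin genes 2 of 7 were, sox10 and tfa, which is also on the digestive list, with plp1b in 2 channels. The part that these tissues had in the dissected samples was not tested.

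Regulatory lists held single bright members. Retina and eye transcription factors had a median of 50.3, with 20 of 65 above in all 4 channels and 13 in none. These shares, 30.8% and 20%, stand beside 35.7% and 16.2% of all genes with a symbol. The retinal determination factor dacha had 8767 and 7004 in C2, 8528 in C3 and 7028 in C4. The factor rx2, of photoreceptors and stem cells, had 3020 and 3106 in C2, 2758 in C3 and 3115 in C4, and six3b stood at 95.4. Signalling genes of the Fgf, Wnt, Bmp, Notch and Hedgehog pathways reached a median of 46.8, and 30 of 82 (36.6%) stood above in all 4. They were led by the Wnt receptor fzd8a (95.9), the inhibitory smad7 (95.3) and beta-catenin ctnnb1 (94.5). Immediate early and stress genes had a median of 55.1, and 11 of 31 (35.5%) were above in all 4 channels. By the Arabidopsis limit 4 of 31 (12.9%) were, beside 21.1% of all genes. In these eyes without surgery btg1, an antiproliferative gene, had 3821 and 4469 in C2, 4276 in C3 and 4383 in C4. The phosphatase dusp1 had 784 and 1336 in C2, 1166 in C3 and 1600 in C4. The stress factor atf3 had 809 and 1001 in C2, 994 in C3 and 1118 in C4. All 3 were above in every channel, whereas nr4a1 and zfp36l2 were above in none. Cell cycle genes reached a median of 56.6, and 15 of 46 (32.6%) stood above in all 4, led by the helicase subunit mcm2 and the kinase plk1 (92.3). The mcm2 probe gave 6922 and 932 in C2, 5268 in C3 and 1268 in C4, so the arrays differed more than the channels within each.

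Among the housekeeping lists, chaperones had a median of 78.9, from cct4 (99.05) and the endoplasmic reticulum chaperone hspa5 (98.6) down to fkbp1ab (12.3). The proteasome had 79.4, led by psmc2 (97.8). Ion pumps and channels had 69.5, led by the mitochondrial ADP/ATP carrier slc25a5 with 18133 and 11365 in C2, 19216 in C3 and 18008 in C4, and by atp1b2b, a beta subunit of the sodium pump (98.9). The alpha subunit atp1a3a, used by neurons, was above in no channel (21.9). Synaptic genes had 71.7 with 13 of 21 above in all 4, and the vesicle proteins vamp1a (98.6) and vamp2 (95.4) led. By the Arabidopsis limit 6 of 21 (28.6%) were above in all 4, beside 21.1% of all genes. The tubulin tubb4b (99.5) and the actin actb2 (97.9) led the cytoskeleton. Another probe of tubb4b (58.03) gave 20810 in C2 and 19275 in C3 on array 1, but 149 in C2 and 115 in C4 on array 2. In the extracellular matrix list, led by sparc (92.4), 6 of 24 (25%) were above in all 4, beside 35.7% of all genes.

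Because pool C2 was measured on both arrays with the same dye, its signals give a direct view of repeatability. Across 14063 probes, which are not independent replicates, log2 signals of C2 on its 2 arrays correlated at r = 0.759. Different pools in different dyes on 1 array correlated at r = 0.872 (C2 with C3) and 0.854 (C2 with C4). After centring on the median, 17.3% of probes lay beyond 2-fold between the C2 channels, against 9.82% between C2 and C3 and 16.1% between C2 and C4. Among the 3741 probes above the empty spots in all 4 channels these shares were 13.6%, 9.25% and 10.5%. Across arrays and pools, C3 and C4, both in Cy3, correlated at r = 0.773.

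A small set of probes was bright on 1 array and dim on the other in both of its channels. The C2 signal differed by over 8-fold between its arrays in 198 probes (1.41%), with 123 brighter on array 1 and 75 on array 2. In 189 of the 198 the Cy3 pools of the same arrays differed the same way by over 2-fold, and in 0 the opposite way. The genes given here were chosen after their values were seen. The bipolar cell factor vsx1 had 5912 in C2 and 20960 in C3 on array 1, and 183 in C2 and 477 in C4 on array 2. The photoreceptor retinol dehydrogenase rdh8b ran the other way, with 175 in C2 and 288 in C3 on array 1, and 17907 in C2 and 16562 in C4 on array 2. For these 2 genes the averages (77.2 and 76.4) describe neither array. None of the 25 brightest genes was affected in its brightest probe, though a dimmer probe of rpl7a was. The percentiles of these brightest probes ranged over less than 1 point between channels. Both follow from the choice of the 25 by their average over these same channels, which a probe dim on 1 array could not reach. They are therefore no test of the array effect among bright genes.

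**Figure D4:**
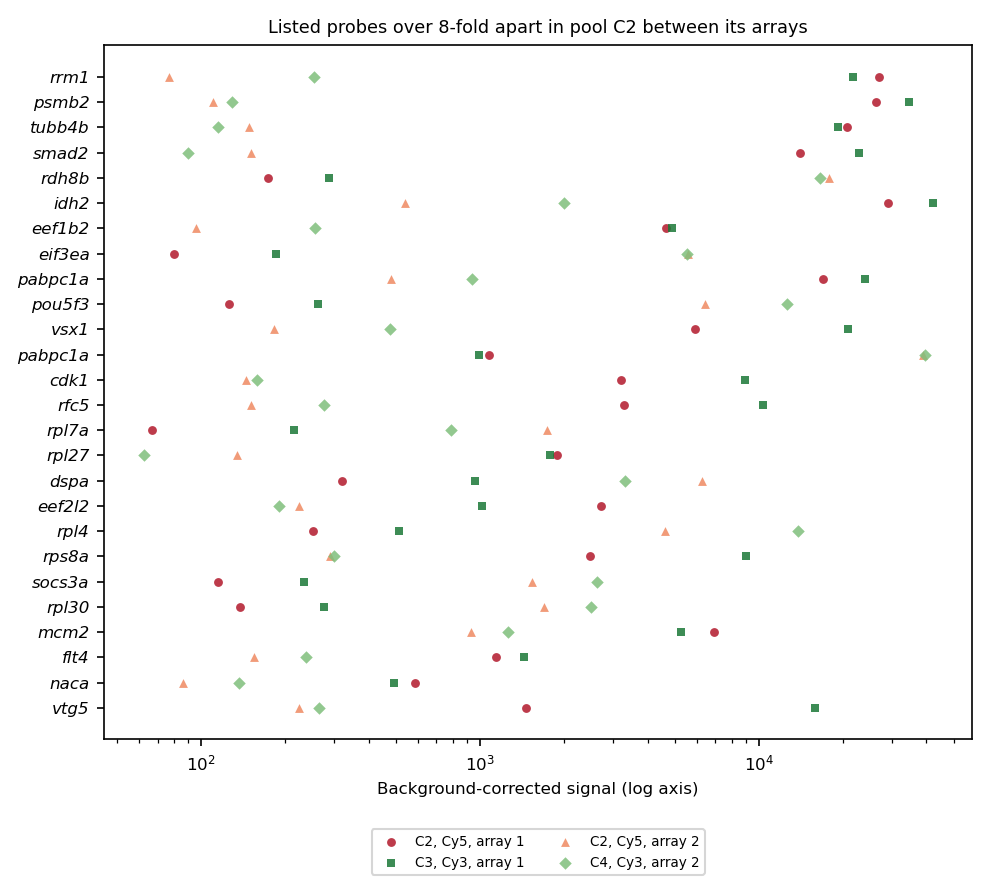
Background-corrected signal (log axis, scanner units) in the 4 unoperated channels for 26 of the 27 probes of listed genes whose C2 signal differed by over 8-fold between arrays. In all 27 the Cy3 pools differed in the same direction as C2, 18 brighter on array 1 and 9 on array 2; pabpc1a appears with 2 probes.

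Differences between unoperated pools were sought on both arrays, as log2 ratios of C2 over C3 and C2 over C4 after loess normalisation. The arrays share C2 in Cy5, so pool and dye cannot be told apart within them. Of the 3741 probes above the empty spots in all 4 channels, C2 was past 2-fold higher in 2.91% and lower in 4.89% against C3, and higher in 4.89% and lower in 5.51% against C4. Over all zebrafish probes, dim ones included, the shares were 1.27% higher and 6.95% lower against C3, 5.87% and 9.17% against C4, and 0.114% and 2.38% on both arrays. Among the probes above the empty spots, on both arrays 12 (0.321%) were higher in C2 and 77 (2.06%) lower, of which 8 and 52 had a gene symbol. The named genes higher in C2 were msx3, hnf1ba, six4a, gadd45ba, hspbp1, sptlc3, mlst8 and drg1. The homeobox gene msx3 had log2 ratios of 1.24 over C3 and 1.34 over C4, and sptlc3, a subunit of serine palmitoyltransferase, 1.45 and 1.05. For six4a, a factor of the sine oculis family, they were 1.09 and 2.74.

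Most of the 77 lower probes were also lower in Cy5 on arrays without unoperated RNA. The 10 named genes with the strongest ratios were hspa9, a probe of pkma, svila, cdx4, etv5b, dnajb6b, llgl2, tnnc1a, mios and mespaa. The mitochondrial chaperone hspa9 had 246 and 455 in C2, 2702 in C3 and 2711 in C4, with log2 ratios of -2.90 over C3 and -2.19 over C4. On the 9 operated arrays its Cy5 over Cy3 difference was -2.67 (SE 0.17, adjusted p = 4.06e-07 in limma). Of the 77 probes, 73 (94.8%) were lower in Cy5 at an adjusted p under 0.05 in limma on the operated arrays. Over all zebrafish probes 8.54% were lower and 2.51% higher in Cy5 by that test, with 27.9% at an unadjusted p under 0.05. The median difference between dyes of the 77 was -1.74. With that effect removed, their median log2 ratios were -0.09 for C2 over C3 and 0.15 for C2 over C4, and 1 of the 77 stayed past 2-fold on both arrays. It was a probe of dlst, a subunit of the oxoglutarate dehydrogenase complex, named after its values were seen, with log2 ratios of -1.21 over C3 and -3.92 over C4 (adjusted p = 1.00 and 0.0922 in limma). Of the 12 higher probes 0 were called for dye, with a median dye difference of 0.29, and 6 stayed past 2-fold on both arrays once it was removed, among them msx3, hspbp1, sptlc3 and drg1. None of the 6 had an adjusted p under 0.05 in limma in either contrast. For sptlc3 the values were 1.51 over C3 and 1.11 over C4 (SE 0.61 each, adjusted p = 1.00 and 0.972 in limma).

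**Figure D5:**
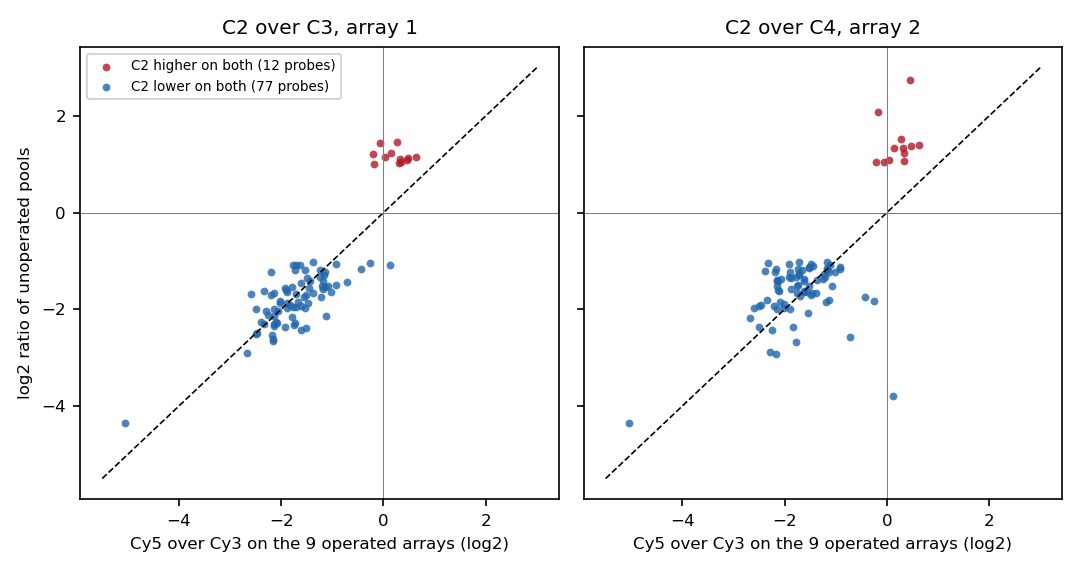
Log2 ratio of pool C2 over C3 (left) and over C4 (right) against the Cy5 over Cy3 difference estimated on the 9 operated arrays (log2), for the 12 probes higher and the 77 lower in C2 past 2-fold on both arrays. The dashed line marks equal values: the probes lower in C2 spread around it, with a median of -1.74 for dye, and the probes higher in C2 lie above it.

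In a limma fit of all 11 arrays with a dye term, few probes passed the test between pools. Of 14063 probes, C2 over C3 gave 1 higher (0.00711%) and 2 lower (0.0142%) at an adjusted p under 0.05, and C2 over C4 gave 0 higher and 2 lower (0.0142%), with 310 (2.2%) and 728 (5.18%) at an unadjusted p under 0.05. None was called on both arrays. Lower in C2 than in C3 were pax2a, a factor of the optic stalk (adjusted p = 0.000142), and nfybb, a subunit of the transcription factor NF-Y (adjusted p = 0.000857). The probe higher in C2 had no symbol. It gave 2830 in C2 and 253 in C3 on array 1, but 181 in C2 and 85.9 in C4 on array 2. C3 over C4 gave 2 higher (0.0142%) and 0 lower, with 444 (3.16%) at an unadjusted p under 0.05. The unoperated arrays add no spread of their own to this fit, which takes it from the operated arrays. The genes higher in C3 than in C4 were again pax2a (adjusted p = 0.00156) and nfybb (adjusted p = 0.00627), so both calls rest on C3. Next in order of p, without passing, came rdh14a, slc43a2b, rundc3b, phactr4b, a probe of rpl13a, hk1, gins2 and ahcyl1, with adjusted p from 0.0769 to 0.476. On the side of C4 stood nsg2, picalmb, tada1, alas1, adgrv1, rab11ba, mgat4b, fam210b, fem1c and pks1, with adjusted p from 0.302 to 0.814. The pax2a probe gave 33287 in C3, 204 in C4, and 60.6 and 327 in C2. The nfybb probe gave 14457 in C3, 209 in C4, and 145 and 232 in C2. In both genes a single channel was bright, against values near or below the empty spots in the others, so no fold is given. Lower in C2 than in C4 were nsg2, a neuronal endosome protein (adjusted p = 0.0342), and tada1 (adjusted p = 0.0475). Leaving out any 1 of the 9 operated arrays left 0 to 1 calls for C2 over C4. The nsg2 probe gave 61.2 in C2 on array 2 and 1184 in C4, but 444 in C2 on array 1. The tada1 probe, of a transcriptional coactivator subunit, gave 130 and 753 in C2, 232 in C3 and 10387 in C4, and was highest in C4. When the fit was limited to the 3741 probes above the empty spots in all 4 channels, 0 probes were called in any of these contrasts (89, 186 and 103 at an unadjusted p under 0.05).

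The unoperated eye was compared with the sham-operated eye on single-channel log2 signals, 3 pools against 9. The sham pools of all times formed a single group, so a difference limited to a single time was averaged with the others. Pool C2 was averaged over its arrays, and the fit held a dye term. Every array held either unoperated or operated RNA, so array and group cannot be told apart. Of 14065 probes, 0 were higher and 0 lower at an adjusted p under 0.05 in limma, with 634 (4.51%) at an unadjusted p under 0.05 and a smallest adjusted p of 0.369. The bright genes were largely shared: 22 of the 25 brightest genes of the unoperated eye were among the 25 brightest of the sham pools. In the sham pools, too, each gene was ranked by its brightest probe in the unoperated eye, so the overlap depends partly on that choice. Across probes, which share arrays and probe properties, the mean levels had a Spearman rho of 0.823. Among the 25 brightest genes rho differed by -0.13 on the log2 scale (SE 0.26) and pde6ha by 0.11 (SE 0.27). The largest difference among the 25 was that of arr3a, at -0.85 (SE 0.32, adjusted p = 0.889). The median over the 72 ribosomal genes was -0.06, over 47 oxidative phosphorylation genes -0.09, over 19 rod genes -0.02 and over 18 cone genes -0.25, beside -0.01 over all genes. At an unadjusted p under 0.05 lay 3 of the 18 cone genes and 257 of the 5091 genes tested.

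The gene with the smallest p among those lower in unoperated eyes was hbba2, the adult beta globin of red cells. Its log2 level was 10.3 in C2, 10.2 in C3 and 11.8 in C4, against a lowest of 11.5, a median of 12.4 and a highest of 13.6 in the sham pools. The difference was -1.89 (SE 0.46, adjusted p = 0.46), and C4 lay inside the sham range. Of the 11 red cell genes, 7 were lower and 4 higher, with a median of -0.10 and 1 at an unadjusted p under 0.05. For col1a1b, a fibrillar collagen chain, the levels were 7.56, 8.17 and 8.35 in C2, C3 and C4, against a lowest of 8.19, a median of 8.65 and a highest of 9.86 in the sham pools. Its probe was above the empty spots in 2 of the 4 unoperated and 5 of the 9 sham channels, so no fold is given (adjusted p = 0.538 in limma). The probes of sec14l1, naalad2, hprt1l, selenop and etfdh were above the empty spots in no unoperated channel, so no fold is given. Also on this side were a probe of pkma, and hspa4b.

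On the higher side the smallest p belonged to c3a.3, a complement component, with log2 levels of 10.96 in C2, 8.97 in C3 and 10.29 in C4, against 6.68, 7.56 and 8.502 as the lowest, median and highest of the sham pools. Its difference was 2.42 (SE 0.45, adjusted p = 0.415), but the probe was above the empty spots in 4 of the 9 sham channels. For slc4a2a, an anion exchanger, the levels were 9.73, 10.1 and 9.69, against 7.14, 8.02 and 9.06 (difference 1.64, SE 0.36, adjusted p = 0.451), with 6 of the 9 sham channels above the empty spots. Neither gene passed the test. Of the 10 named genes on this side, 7 had C2 signals more than 2-fold apart between the arrays, among them chn1, cherp, uba2, chmp1b, a probe of pabpc1a and abcf1. For cherp the C2 signal was 282 on array 1 and 19397 on array 2, and the Cy3 signal 768 in C3 and 25257 in C4. The others were c3a.3, tonsl and slc4a2a. Of the 10 named genes on the lower side, 0 had C2 signals that far apart, but several of them were above the empty spots in no unoperated channel. Over all zebrafish probes the share that far apart was 17.5%. Without pool C3, limma called 56 probes higher at an adjusted p under 0.05, of which 54 had C2 over 4-fold brighter on array 2. Without pool C4, it called 77, of which 75 had C2 over 4-fold brighter on array 1. The 2 sets shared 1 probe. Over 14063 zebrafish probes, C2 was more than 4-fold brighter on array 2 in 195 and on array 1 in 225.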

How the data were processed

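RNA pools of zebrafish eyes were hybridised in pairs to 2-colour oligonucleotide arrays with 14784 spots: 14067 zebrafish probes, 173 Arabidopsis control probes and 544 empty positions. The deposited scanner files give foreground and background intensity in each dye, per the file headers. Among tools, limma stands in the submitters' processing notes, without a version. The authors' deposited table of log2 values has 14240 values for the unoperated eye with a median of -0.12. Its scale and direction are unknown and it was not used further.

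The members, gene lists and tests were chosen with earlier results of these data known. Dye and pool were read from the array names. Background was corrected with normexp (offset 50) in limma 3.58.1 under R 4.3.3, and tables were made in Python 3.11.15 with pandas 2.3.3. Ratios were loess-normalised within arrays with empty and control spots at weight 0. Printed signals precede this normalisation, so log2 ratios differ from their quotients. The unoperated and sham pools were compared with limma on single-channel values, after quantile normalisation of average signals between arrays. Adjusted p-values are Benjamini-Hochberg over all probes tested. They rest on the spread between pools and arrays together, and not on that between single fish. Accessions named 7755 probes, and 8308 probes in all had a symbol. Symbols in the files can be old, and names are cut short there.

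Named were the 25 brightest genes, of each list the 4 brightest and 2 dimmest members and undetected defining genes, and the 10 leading genes a side of each comparison. Others are exceptions chosen after their values were seen, and a few genes under this rule are not reported here. The number of arrays limits the precision. Alternatives covered background correction, normalisation, the limit for dim spots, the fold threshold, the choice of probe per gene, each dye alone and leaving out each pool or array.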

Additional observations from a re-analysis of the deposited data

Results flagged for a closer look

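Arabidopsis control probes have no target in the fish. In pool C2 on array 1, labelled with Cy5, 8.09% of them were above the 95th percentile of the empty spots, and in pool C3 on that array, labelled with Cy3, 54.3% were. On array 2 the shares were 11.6% in pool C2 in Cy5 and 50.3% in pool C4 in Cy3. These were singled out because the probes serve no comparison of the study and exceeded the 5% of empty spots that lie above the limit by construction. On the operated arrays the shares were 2.89% to 17.3% in Cy5 and 20.8% to 53.2% in Cy3.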

How the results depend on the processing

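Of the values recomputed for the main results, 87 stayed within 1.5 times of the reported one and 32 moved. The 3741 probes above the empty spots in all 4 channels became 2200 with the 99th percentile as limit and 2078 with the Arabidopsis limit, and leaving out a pool gave 3771 to 8318, the highest without C2. The 2897 probes above in none became 8213 and 8250 under those limits, 1262 with foreground minus background, and 3076 to 3944 without a pool. With the median over a gene's probes, 1116 genes were above in all 4. Probes higher in C2 on both arrays numbered 144 at 1.5-fold, 1 without background correction and 29 with scaling between arrays. Those lower numbered 159 at 1.5-fold, 45 without background correction and 334 without the filter on dim probes. Without background correction limma called 33 probes for C2 over C3, 9 for C2 over C4 and 11 for C3 over C4. Limited to the 3741 probes, it called 0 in each, with 89, 186 and 103 at an unadjusted p under 0.05. Median centring gave 7 for C2 over C4, and leaving out 1 operated array gave 0 to 1. Against sham pools, leaving out a pool gave 0 to 77 probes higher: 77 without C4, 56 without C3 and 1 without sham replicate 5. The cause of these shifts was not tested. Of the recomputed list medians and other values, 249 stayed and 48 moved. For a list median the limit was not 1.5 times but the standard deviation of its medians in the 4 channels. By that limit the cone list moved from 93.2 to 93.5 with foreground medians, while the lens list stayed at 40.5 to 32.96 with Cy3 alone. List medians shifted by up to 14.8 percentile points with Cy5 alone and 11.6 with Cy3 alone. The signalling list stood at 57.2 with Cy5 alone, beside 46.8 as reported, and with Cy3 alone the eye transcription factors stood at 61.8 and the ganglion cell list at 60.6. Pigment cell genes, lowest in the reported setting, stood at 40.7 with Cy3 alone, where the lens was at 32.96, and at 42.1 with Cy5 alone, where the heart was at 39.3. Of the 25 brightest genes, 23 to 25 remained under every alternative run. No paired analysis was possible because the unoperated pools share no replicate number with the other groups that the labels tie to the same fish or batch. Dim spots limit the rest: 52.8% of zebrafish probes were above the empty spots in 1 to 3 channels only.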
